A study of Mus musculus with 8 samples.

Results

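The 10 genes described here are 9 immediate early genes (Fos, Fosb, Jun, Junb, Egr1, Atf3, Ier2, Nr4a1 and Zfp36) and the stress-inducible gene Gadd45b, chosen by name. They were found on the array through probe sets annotated to a single gene symbol. All 10 were found, with 13 probe sets, among 18193 genes with 34945 such probe sets. Each gene is represented by the probe set with the highest mean over the 8 arrays. The tissue was inguinal white adipose tissue (iWAT), a subcutaneous depot, taken at 12 weeks of age from C57BL/6 males fed standard chow. There were 4 LPA4-KO mice (Lpar4 -/Y), which lack the X-linked lysophosphatidic acid receptor gene Lpar4, and 4 wild-type (WT) littermates, each with an array of its own. The excised fat was snap frozen. The hour of dissection and the time from death to freezing were not analysed here. An array is named by its genotype and replicate number, as in WT 1. Values are log2 signals, and differences are LPA4-KO minus WT.

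Immediate early genes are switched on within minutes of a stimulus from transcription factors already present in the cell, without new protein synthesis, and their mRNAs decay quickly. Growth factors, G protein-coupled receptor ligands such as lysophosphatidic acid, stretch, wounding and tissue handling are all known to induce them, largely through the ERK and p38 pathways acting on SRF and CREB. Gadd45b belongs to a small family of stress-induced proteins that bind and activate an upstream kinase of the p38 and JNK pathways, and it is also induced by TGF-beta and NF-kappaB.

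Gadd45b was the member that passed the test between the genotypes. It was 1.81-fold lower in LPA4-KO iWAT, with all 4 LPA4-KO arrays below all 4 WT arrays. The call was lost with the replicate number as a block (limma adjusted p = 0.167), and in 12 of 18 alternatives in all. None of the 9 immediate early genes passed the same test, and their genotypes overlapped. Instead, 7 of them were high in the same 2 mice, LPA4-KO 2 and WT 1, 1 of each genotype. Fosb and Atf3 did not vary measurably between any arrays. Of the 10 members 1 passed limma with Benjamini-Hochberg adjustment over all genes at 0.05 (10 tested, 1 lower and 0 higher), against 4.03% of all genes. Genotypes did not overlap in 1 of 10 members, against 16.2% of all genes, and in 1 of the 8 members that varied, against 33.2% of varying genes.

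A gene was taken as varying when its SD over the 8 arrays was at least 0.01. The median difference was -0.22 over the 8 varying members and 0.01 over the 5173 varying genes. The mean was lower in LPA4-KO for 7 of these 8 members and for 47.7% of varying genes. Without WT 1 the differences of Fos, Junb, Egr1, Nr4a1 and Zfp36 turned to between 0.0018 and 0.18, while Ier2 and Gadd45b stayed lower. Without LPA4-KO 2 instead, the differences of those that had turned ran from -0.56 for Egr1 to -0.09 for Zfp36. Without both arrays Fos, Junb, Egr1, Nr4a1 and Ier2 stayed lower (-0.29 to -0.10), and Zfp36 was at 0.02. The lower means of the immediate early genes shift together with these 2 arrays, so the 7 lower means are not separate observations. In the table as deposited 78.7% of probe sets were near constant, with an SD under 0.01, and how this arose is not known here. Array medians ran from 6.73 to 6.74. The mean of 4 adipocyte markers was 12.77 to 12.92 in all arrays, near the top of a table that reached 14.3. Of the 3 Lpar4 probe sets, 1452424_at was lower in LPA4-KO (5.81 ± 0.07 against 6.93 ± 0.10, SD, n = 4 each), and 1434186_at and 1439665_at were higher in all 4 LPA4-KO arrays than in any WT array (differences of 0.71 and 0.53). Where each lies relative to the deleted part of the gene is not known here.

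**Figure D1:**
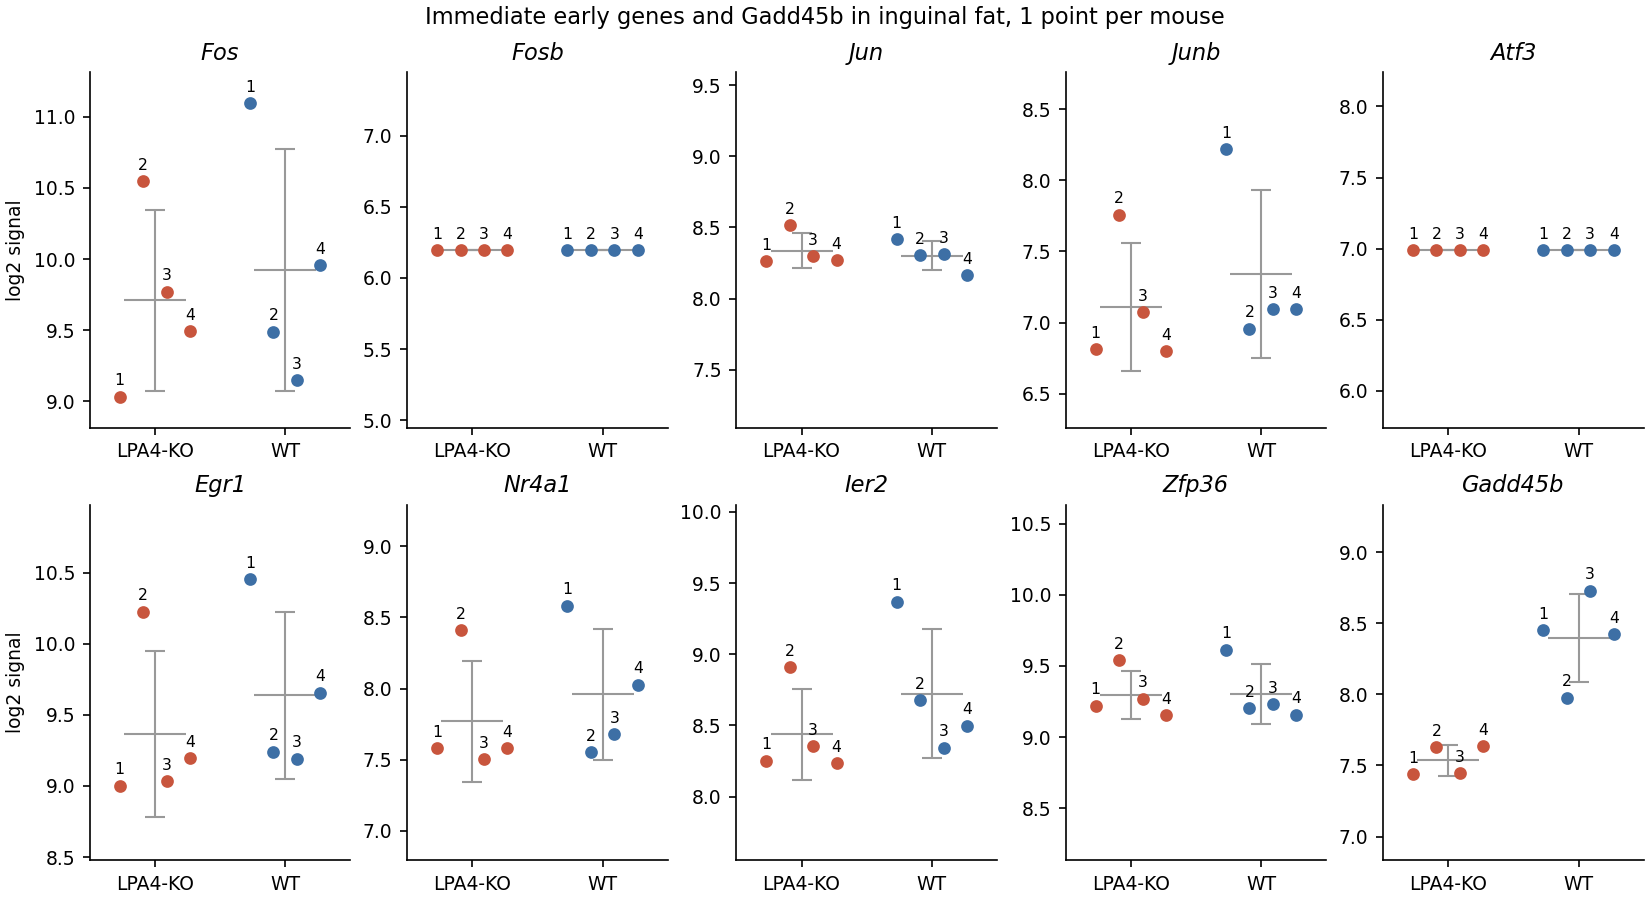
The log2 signal of each of the 10 genes in every mouse, with the replicate number above each point and a line at the group mean with its SD (n = 4 per group). All panels span the same number of log2 units. In 7 immediate early genes LPA4-KO 2 and WT 1 are the 2 highest points, whereas in Gadd45b all LPA4-KO points lie below all WT points.

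The AP-1 factor is a dimer of Fos-type and Jun-type proteins, and Fos is its classical inducible subunit. The Fos signal was 9.03, 10.55, 9.77 and 9.49 in LPA4-KO 1 to 4 and 11.10, 9.49, 9.15 and 9.96 in WT 1 to 4. WT 1 and LPA4-KO 2 were the highest, LPA4-KO 1 was the lowest, and the genotypes overlapped over most of their range. LPA4-KO arrays averaged 9.71 ± 0.64 and WT arrays 9.92 ± 0.85 (SD, n = 4). The difference was -0.21, with a 95% interval from -1.46 to 1.04 (limma adjusted p = 0.856). The SD of Fos over the 8 arrays stood at percentile 98.7 of varying genes, so few genes differed more from mouse to mouse.

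Junb encodes the Jun-type partner that rises with Fos and restrains some Jun targets. Its signal was 6.81, 7.76, 7.07 and 6.80 in LPA4-KO 1 to 4 and 8.22, 6.96, 7.09 and 7.09 in WT 1 to 4. The same 2 mice were again the highest, and the other 6 arrays lay between 6.80 and 7.09. The difference between genotypes was -0.23, with a 95% interval from -1.10 to 0.64 (limma adjusted p = 0.761).

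Jun, the founding AP-1 subunit, varied least among the 8 varying members on its brighter probe set. The brighter of its 2 probe sets, 1448694_at, ran from 8.17 in WT 4 to 8.52 in LPA4-KO 2, with a difference of 0.04 and a 95% interval from -0.15 to 0.22 (limma adjusted p = 0.826). The second, 1417409_at, differed by more, at 0.32, from 8.15 ± 0.20 in WT to 8.46 ± 0.22 in LPA4-KO (SD, n = 4), without passing over all probe sets (limma adjusted p = 0.275) and with overlap of LPA4-KO 3 with WT 1. The SD over the 8 arrays was 0.26 on 1417409_at and 0.11 on 1448694_at, against 0.18 for Zfp36. The 2 probe sets of Jun therefore gave neither the same size of difference nor the same spread.

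Fosb, a further Fos-type subunit, and Atf3, a stress-induced repressor of the ATF and CREB family, were near constant. Fosb ran from 6.195 to 6.196 and Atf3 from 6.99 to 6.991 over the 8 arrays, with differences of -0.0001 and 0.0002. Their means were at percentiles 19.7 and 58.9 of all probe sets. At such values no change of these 2 genes could be resolved in either direction.

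Egr1 encodes a zinc finger factor induced by ERK signalling and by mechanical stimuli. The Egr1 signal was 9.003, 10.23, 9.04 and 9.20 in LPA4-KO 1 to 4 and 10.45, 9.24, 9.19 and 9.66 in WT 1 to 4. LPA4-KO 2 stood apart from the other 3 LPA4-KO arrays, and WT 4 was the third highest after WT 1 and LPA4-KO 2. The difference between genotypes was -0.27, with a 95% interval from -1.24 to 0.70 (limma adjusted p = 0.746).

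Nr4a1, an orphan nuclear receptor induced by cAMP and stress, followed Egr1 closely. Its signal was 7.58, 8.41, 7.51 and 7.58 in LPA4-KO 1 to 4 and 8.58, 7.55, 7.68 and 8.03 in WT 1 to 4. The order of the 3 highest arrays was the same as for Egr1, with WT 1 above LPA4-KO 2 and WT 4. The difference was -0.19, with a 95% interval from -0.93 to 0.55 (limma adjusted p = 0.765).

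Ier2, a small nuclear protein of the early response, and Zfp36, which encodes tristetraprolin, a protein that destabilises AU-rich mRNAs and so helps to end the response, had the same 2 mice on top. Ier2 was 8.25, 8.91, 8.35 and 8.24 in LPA4-KO 1 to 4 and 9.37, 8.68, 8.34 and 8.499 in WT 1 to 4. Its difference of -0.29 was the largest among the 9 immediate early genes on their brightest probe sets, with a 95% interval from -0.94 to 0.37 (limma adjusted p = 0.589). Zfp36 spanned less, from 9.16 in LPA4-KO 4 to 9.61 in WT 1, and its genotype means were nearly equal at 9.30 ± 0.17 and 9.30 ± 0.21 (SD, n = 4). Its difference was -0.01, with a 95% interval from -0.32 to 0.31 (limma adjusted p = 0.985). For none of these genes does the missed threshold show that the genotypes were alike. The intervals of Fos, Egr1 and Junb include changes of more than 1 log2 unit downward, and that of Fos a rise of 1 unit.

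Gadd45b was arranged differently, with no overlap between the genotypes and a wider spread in WT than in LPA4-KO. Its signal was 7.44, 7.63, 7.45 and 7.63 in LPA4-KO 1 to 4 and 8.45, 7.98, 8.73 and 8.42 in WT 1 to 4. The highest LPA4-KO array lay below the lowest WT array, WT 2, and the pattern of 2 high mice was absent. LPA4-KO arrays averaged 7.54 ± 0.11 and WT arrays 8.40 ± 0.31 (SD, n = 4). The difference was -0.86 ± 0.16 (SE) with a 95% interval from -1.24 to -0.47 (limma adjusted p = 0.0437). The exact permutation p was 0.0286, the smallest that 4 against 4 arrays can give, and LPA4-KO was lower in all 4 replicate numbers, as it was for 25.0% of varying genes. By size it was the 20th of the 299 genes that fell. The fall was 0.68 in replicate numbers 1 and 2 and 1.04 in 3 and 4.

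The call of Gadd45b was close to the threshold. With the replicate block 0 of 18193 genes passed (0.00%), although 3703 had an unadjusted p under 0.05. The call was also lost in 7 of 8 fits that left out 1 array (limma adjusted p from 0.0435 to 0.124, kept only without WT 2), with differences from -0.996 to -0.75. Among the 5173 varying genes, of which 27.1% passed, it passed without the block (limma adjusted p = 0.00973). It passed there with the block as well (0.0325), against 19.5% of varying genes.

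Of its 3 probe sets, 2 gave a like difference. Probe set 1449773_s_at, whose suffix marks probes shared with other transcripts, was 7.84 ± 0.39 in WT and 6.97 ± 0.13 in LPA4-KO (SD, n = 4). Its difference of -0.87 separated the genotypes but missed the threshold over all probe sets (limma adjusted p = 0.0736). Probe set 1420197_at was near constant at 6.73. The brightest, 1450971_at, gave the values above (limma adjusted p = 0.0499 over all probe sets).

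**Figure D2:**
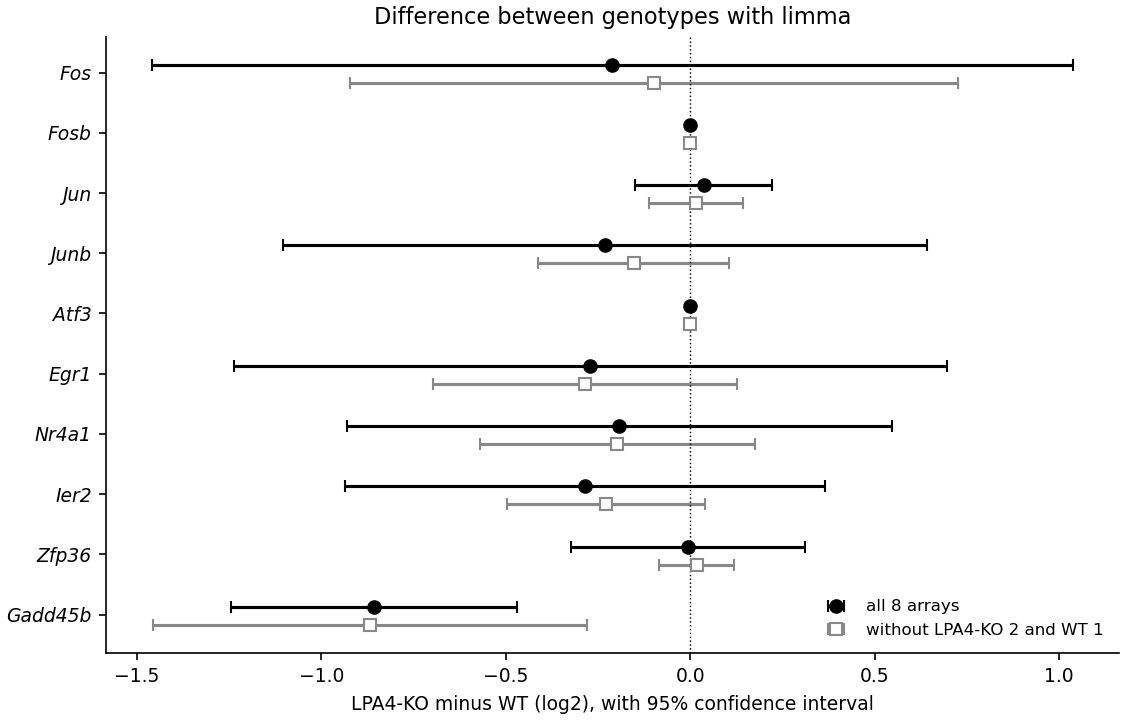
The difference LPA4-KO minus WT on the log2 scale with its 95% limma confidence interval, for all 8 arrays (filled circles) and without LPA4-KO 2 and WT 1 (open squares, 3 against 3). Only the interval of Gadd45b lies wholly below 0, and those of most immediate early genes shorten when the 2 arrays are left out.

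The 2 high mice set most of the spread of the immediate early genes. In LPA4-KO 2 the Fos signal was 1.12 log2 units above the mean of the other 3 LPA4-KO arrays (2.17-fold), and in WT 1 it was 1.56 above the mean of the other 3 WT arrays (2.96-fold). The same excess was 1.147 and 1.09 for Egr1, 0.86 and 1.17 for Junb, 0.85 and 0.83 for Nr4a1 and 0.63 and 0.86 for Ier2. It was smaller for Zfp36 (0.32 and 0.42) and Jun (0.24 and 0.15). For Gadd45b the excess was 0.12 and 0.07. Both arrays lay above all of the other 6 in 7 of 8 varying members, against 2.07% of varying genes. This count was chosen after the values were seen and describes these mice. It includes Jun through its brighter probe set only. On its second, 1417409_at, LPA4-KO 2 was highest (8.76), but WT 1 (8.42) lay below LPA4-KO 4 (8.45).

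Without these 2 arrays, a choice also made after seeing the data, no immediate early gene passed, and the differences were -0.10 for Fos, -0.15 for Junb, -0.29 for Egr1, -0.20 for Nr4a1 and -0.23 for Ier2 (limma adjusted p from 0.312 to 0.896, 3 against 3). For Gadd45b the difference stayed at -0.87 with a 95% interval from -1.46 to -0.28, while its call was lost (limma adjusted p = 0.164). In that fit 0 of 18193 genes passed, and 3506 had an unadjusted p under 0.05.

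**Figure D3:**
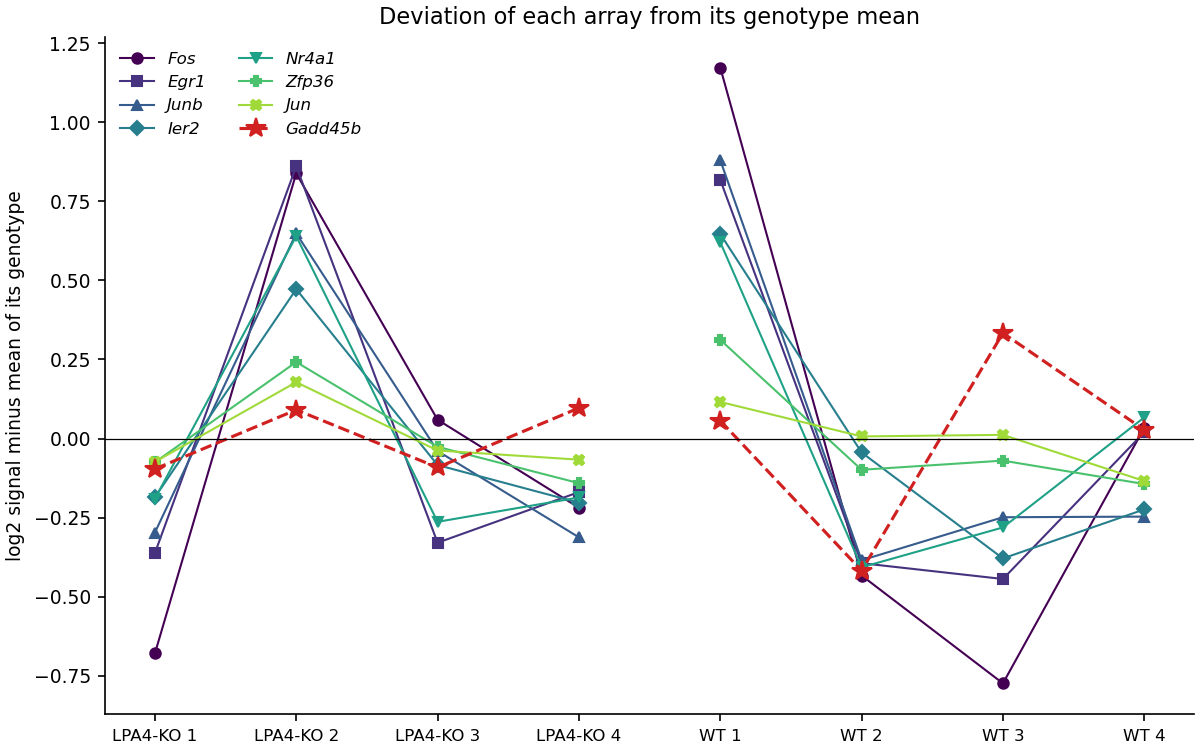
The log2 signal of each varying gene minus the mean of its own genotype, in each array. Fos, Egr1, Junb, Ier2, Nr4a1, Zfp36 and Jun all peak in LPA4-KO 2 and WT 1, and Gadd45b (dashed) does not.

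Across the 8 arrays the 15 pairs among Fos, Junb, Egr1, Ier2, Nr4a1 and Zfp36 had Pearson r from 0.856 to 0.989 (exact permutation p from 0.000843 to 0.0298, adjusted over all 28 pairs from 0.0125 to 0.0522). Spearman correlations ran from 0.31 to 0.833, with exact permutation p from 0.0154 to 0.462 and no pair under 0.143 after adjustment. When the 2 arrays farthest from the median were left out, which were LPA4-KO 2 and WT 1 in each of the 15 pairs, r ran from -0.682 to 0.918. The shared pattern therefore rests on those 2 mice. Of the 15, the pair that held best was Egr1 with Nr4a1, with r of 0.989 over 8 arrays and 0.918 over the other 6 (exact permutation p = 0.0472, unadjusted). Jun, though high in the same 2 mice, was not part of these 15 pairs. Its Pearson r with the same genes was lower for most, from 0.61 with Fos to 0.868 with Zfp36. The exact permutation p adjusted over all 28 pairs ran from 0.0214 with Zfp36 to 0.143 with Fos. Gadd45b had Pearson r from -0.105 to 0.349 and Spearman correlations from 0.0476 to 0.524 with the other 7 varying members, with no exact permutation p below 0.39 for Pearson or 0.197 for Spearman before adjustment, and none below 0.497 or 0.336 after it. When LPA4-KO 2 and WT 1 were left out, r of Gadd45b was 0.64 with Junb, 0.63 with Egr1 and 0.64 with Nr4a1. It was 0.36 with Ier2, 0.05 with Fos and -0.22 with Zfp36 (exact permutation p from 0.132 to 0.947, unadjusted). For Junb, Egr1 and Nr4a1 the low r of Gadd45b over 8 arrays therefore also rests on those 2 mice. All of these correlations come from the same 8 arrays. None was computed within the replicate numbers 1 and 2 or 3 and 4, which hold too few arrays.

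Outside the members, the varying genes most like Fos over the 8 arrays were the cyclooxygenase Ptgs2 (Pearson r = 0.839), the sorting nexin Snx2 (0.821), the ribosomal protein Rps9 (0.82), the protease Pappa2 (0.804) and the endotoxin co-receptor Cd14 (0.79). Among the members Junb, Egr1, Ier2, Nr4a1 and Zfp36 each had a higher r with Fos than any of these. The genes most like Gadd45b were the deubiquitinase Usp3 (0.99), the splicing factor Sart1 (0.988), the endoplasmic reticulum protein Ccdc47 (0.986), the elongation factor Ell (0.985) and the zinc finger gene Zfp280d (0.976). Ell, for example, was 8.11 ± 0.07 in LPA4-KO and 8.48 ± 0.16 in WT (SD, n = 4). These 5 share with Gadd45b the gap between the genotypes, and over 5173 genes and 8 arrays such high values are a description only.

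The proximal promoters of Fos, Junb, Nr4a1 and Zfp36, which were high in the same 2 mice, are printed beside that of Gadd45b, which was not. Jun, also high in those 2 mice, has a window that was searched but is not printed. Of the 10 members 8 had a promoter entry (RefSeq, GRCm38.p6), and Egr1 and Ier2 had none. Each line holds the 250 bases before the annotated gene start, 5' to 3' on the gene's strand. Capitals mark the cyclic AMP response element core TGACG on either strand, and in Zfp36 the CArG box, the sequence bound by SRF.
Fos, chr12:85473640-85473889, plus strand: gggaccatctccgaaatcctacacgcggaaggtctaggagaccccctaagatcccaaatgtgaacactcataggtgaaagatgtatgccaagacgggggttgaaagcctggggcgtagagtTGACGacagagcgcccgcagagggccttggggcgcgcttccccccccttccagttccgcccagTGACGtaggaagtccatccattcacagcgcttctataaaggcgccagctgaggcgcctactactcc
Junb, chr8:84978749-84978998, minus strand: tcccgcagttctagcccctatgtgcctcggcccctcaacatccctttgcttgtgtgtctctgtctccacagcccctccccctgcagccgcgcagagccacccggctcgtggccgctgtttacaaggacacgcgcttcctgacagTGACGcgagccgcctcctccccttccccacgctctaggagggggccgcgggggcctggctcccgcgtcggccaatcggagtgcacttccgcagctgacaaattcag
Nr4a1, chr15:101266596-101266845, plus strand: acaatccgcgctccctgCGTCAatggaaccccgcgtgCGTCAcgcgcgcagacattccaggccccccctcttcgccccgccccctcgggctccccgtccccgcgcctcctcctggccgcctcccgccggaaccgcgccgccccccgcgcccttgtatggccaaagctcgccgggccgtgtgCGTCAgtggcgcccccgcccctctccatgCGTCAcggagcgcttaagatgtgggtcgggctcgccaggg
Zfp36, chr7:28379229-28379478, minus strand: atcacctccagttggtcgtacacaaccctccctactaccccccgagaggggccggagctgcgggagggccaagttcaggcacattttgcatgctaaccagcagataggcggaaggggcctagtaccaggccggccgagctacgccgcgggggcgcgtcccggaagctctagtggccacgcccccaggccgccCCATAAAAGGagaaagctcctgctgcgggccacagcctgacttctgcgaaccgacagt
Gadd45b, chr10:80929841-80930090, plus strand: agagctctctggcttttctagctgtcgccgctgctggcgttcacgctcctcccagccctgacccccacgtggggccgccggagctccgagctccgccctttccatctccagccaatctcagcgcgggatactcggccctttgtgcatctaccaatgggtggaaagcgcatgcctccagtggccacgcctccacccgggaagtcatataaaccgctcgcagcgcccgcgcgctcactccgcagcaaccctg
The core was found 2 times in Fos, 4 times in Nr4a1 and 1 time each in Junb, Fosb and Atf3. It was not found in the windows of Jun, Zfp36 and Gadd45b. Of all 32851 promoter windows of this length 17.8% held at least 1 such site, 3.9% at least 2 and 0.137% at least 4. The CArG box was found in the window of Zfp36 alone among the 8, starting at base -58, against 1.47% of all windows. Neither the full element TGACGTCA nor the AP-1 site TGACTCA, searched on both strands, was found in any of the 8 windows, against 1.55% and 4.46% of all. The core lies within the full element, so those 2 searches overlap. The TATA box TATAAA, not marked above, was found 1 time each in Fos and Gadd45b and in no other member window, against 12.4% of all windows. GGAA, the core of ETS factor sites, was found in all 8 windows, against 93.45% of all. A match is only a match of letters, and sites beyond these windows were not searched.

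Other early response genes were read in 4 lists. In the lists of other AP-1 subunits, other EGR and NR4A factors and other immediate early transcription factors and effectors, 58 genes were measured and 42 varied. Of the 58 measured, 1 rose and 0 fell, against 2.39% and 1.64% of all genes. Adjusted over varying genes alone, 2 of the 42 were higher and 5 lower, against 14.9% and 12.2% of varying genes. The riser was Homer1, a postsynaptic scaffold gene with an early short isoform (0.37 ± 0.06, SE, limma adjusted p = 0.0309, and 0.106 with the replicate block). Averaged over its probe sets the difference of Homer1 was 0.06. The 58 genes' median difference was -0.0002 over all 58 and -0.11 over the 42, against 0.00003 over all genes and 0.01 over varying genes. In each list without a call the smallest p belonged to the small Maf gene Mafk (-0.55, limma adjusted p = 0.0706), Egr4 (near constant) and Id3, an inhibitor of basic helix-loop-helix factors (-0.36, 0.0670). Of the 42 varying genes 10 were highest in LPA4-KO 2 and WT 1 of their genotypes, against 4.70% of varying genes, among them Btg2, Ier3, Klf10 and Per1. They were 6 transcription factors and 4 effectors, with 0 of the 7 varying AP-1 subunits and 0 of the 2 varying EGR and NR4A factors. The 4 named genes were chosen after their values were seen.

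The feedback arms of the response gave 1 call between them, while 4.03% of all genes passed. Of 9 MAP kinase phosphatase genes, of which 5 varied, 0 passed limma (1 at an unadjusted p under 0.05), with a list median of 0.0004. The smallest p belonged to Dusp2, which was near constant (0.0004, limma adjusted p = 0.0515). Dusp1, which inactivates p38 and JNK, was 11.42 in LPA4-KO 2 and 11.38 in WT 1 and between 10.57 and 10.95 in the other 6 arrays, and it is named after its values were seen. Of 8 measured genes of the Zfp36 family and AU-rich decay, 1 fell and 0 rose. This was Hnrnpd, which encodes the AU-binding protein AUF1 (-0.22 ± 0.04, SE, limma adjusted p = 0.0369, and 0.142 with the replicate block). Averaged over its probe sets it gave -0.07. Of 12 AU-rich inflammatory targets, of which 5 varied, 0 passed (0 at an unadjusted p under 0.05). The smallest p was that of Lif, which was near constant, and the list median was 0.00.

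Around Gadd45b, 0 of 14 measured genes of the Gadd45 family and the p38 and JNK module passed, against 4.03% of all genes. Of the 14, 4 had an unadjusted limma p under 0.05. Of the 14, 9 varied, with medians of -0.0001 over all and -0.04 over the varying. The smallest p was that of the replication clamp Pcna, a known binding partner of Gadd45 proteins (0.07, limma adjusted p = 0.0699). The 2 nearest relatives of Gadd45b, named after their values were seen, behaved differently from each other. Gadd45g was 8.62, 8.72, 8.53 and 9.67 in LPA4-KO 1 to 4 and 9.44, 10.24, 9.73 and 9.55 in WT 1 to 4, a difference of -0.86 that did not pass (limma adjusted p = 0.172). LPA4-KO 4 overlapped the WT arrays there. Gadd45a was near constant at 7.12. Cdkn1a, a cell cycle inhibitor gene also named after its values were seen, was 8.29, 8.46, 8.18 and 9.31 in LPA4-KO 1 to 4 and 9.24, 9.44, 9.66 and 9.61 in WT 1 to 4. Its difference of -0.92 did not pass over all genes (limma adjusted p = 0.111). It passed among varying genes (0.0282, and 0.0384 with the replicate block), and LPA4-KO 4 overlapped WT 1.

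Upstream, the SRF, ternary complex and MRTF factor list had 1 gene lower and 0 higher of 10, against 1.64% and 2.39% of all genes. Of the 10, 4 varied. Mrtfb, a coactivator of SRF that responds to actin, fell by 0.36 ± 0.05 (SE, limma adjusted p = 0.0275, and 0.106 with the replicate block), or by 0.12 averaged over its probe sets. In the ERK cascade 1 of 8 measured genes rose and 0 fell, against 2.39% and 1.64% of all genes. The riser was Sos1, the exchange factor that loads Ras (0.35 ± 0.04, SE, limma adjusted p = 0.0177, and 0.0729 with the block). Averaged over its probe sets the difference of Sos1 was 0.07. Of 14 measured LPA receptor and G protein genes, of which 5 varied, 0 passed, against 4.03% of all genes. Lpar4 itself was not in this list, and its probe sets are given above. Of the 14, 2 had an unadjusted limma p under 0.05. The smallest p was that of Gna13 (0.08, limma adjusted p = 0.0855), a G protein alpha subunit, and its sign turned to -0.064 when its probe sets were averaged.

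**Figure D4:**
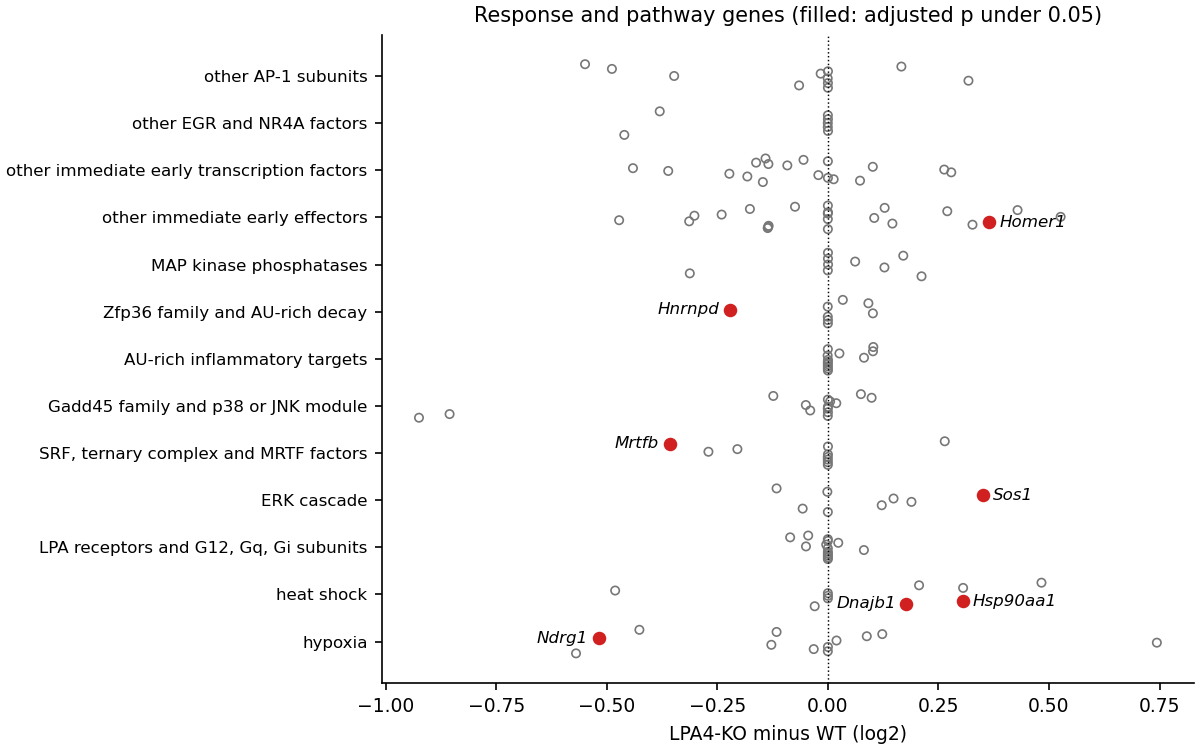
LPA4-KO minus WT differences on the log2 scale for the measured genes of 13 lists, 1 point per gene, with filled and named points for adjusted p under 0.05. The near-constant genes stand on the line, and 7 genes are filled.

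Cell type markers were read beside both patterns. All 5 skeletal muscle markers were highest in LPA4-KO 2 and in WT 1 of their genotypes, the same arrays as the immediate early genes. Their mean was 9.31, 10.12, 6.72 and 7.38 in LPA4-KO 1 to 4 and 9.53, 9.06, 6.83 and 7.25 in WT 1 to 4, so it was high in replicate numbers 1 and 2 of both genotypes. LPA4-KO 1, with the third highest muscle mean, had the lowest Fos of all arrays. The mean of 5 macrophage markers was highest in WT 1 (10.65) and ran from 9.24 to 10.47 in the other 7, with LPA4-KO 2 at 10.38. The mean of 3 T cell markers was 7.11 in WT 1 and 6.55 to 6.66 in the other WT arrays, while LPA4-KO 2 (6.88) was the lowest LPA4-KO array. The difference between the 3' and 5' control probe sets, which grows with RNA degradation, was 1.11 and 1.08 for actin in LPA4-KO 2 and WT 1 and 1.14 to 1.33 in the others. The same difference for Gapdh was 0.66 in both and 0.63 to 0.87 in the others. LPA4-KO 1, the array lowest in Fos, had the largest difference for both controls (1.33 for actin and 0.87 for Gapdh). WT 3, the next lowest in Fos (9.15), had the next largest for both. The smallest Gapdh difference (0.63) was in LPA4-KO 3, where Fos was 9.77. The part of muscle, macrophages and RNA quality in the early gene pattern was not tested. Epithelial markers (0 of 5 varying) and B cell markers (0 of 2 varying) were near constant in all arrays.

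Other markers moved with genotype, as Gadd45b did. The mean of 4 smooth muscle and pericyte markers was 9.63 to 9.85 in LPA4-KO and 10.07 to 10.36 in WT, with 3 of the 4 lower in LPA4-KO and 1, Acta2, passing (-1.26, limma adjusted p = 0.0134). The mean of the 2 measured Schwann cell markers was 7.76 to 8.48 against 8.57 to 9.15, carried by Mbp, since Sox10 was near constant. The mean of 4 adipocyte markers was 12.89 to 12.92 in LPA4-KO and 12.77 to 12.86 in WT, with 1 passing. Blood endothelium markers (4 genes) ran from 8.49 to 8.75 and from 8.71 to 8.95. Fibroblast (3 genes, 10.32 to 10.66 against 10.17 to 10.73), neutrophil (3 genes, 6.77 to 7.03 against 6.82 to 7.003) and erythrocyte markers (2 genes, 6.98 to 7.11 against 6.73 to 7.09) overlapped. The 18S ribosomal RNA control probe sets were higher in all 4 LPA4-KO arrays (0.44, 0.22 and 0.28). In whole tissue, fewer cells of a type and less RNA per cell cannot be told apart, and the part of these differences in the fall of Gadd45b was not tested.

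**Figure D5:**
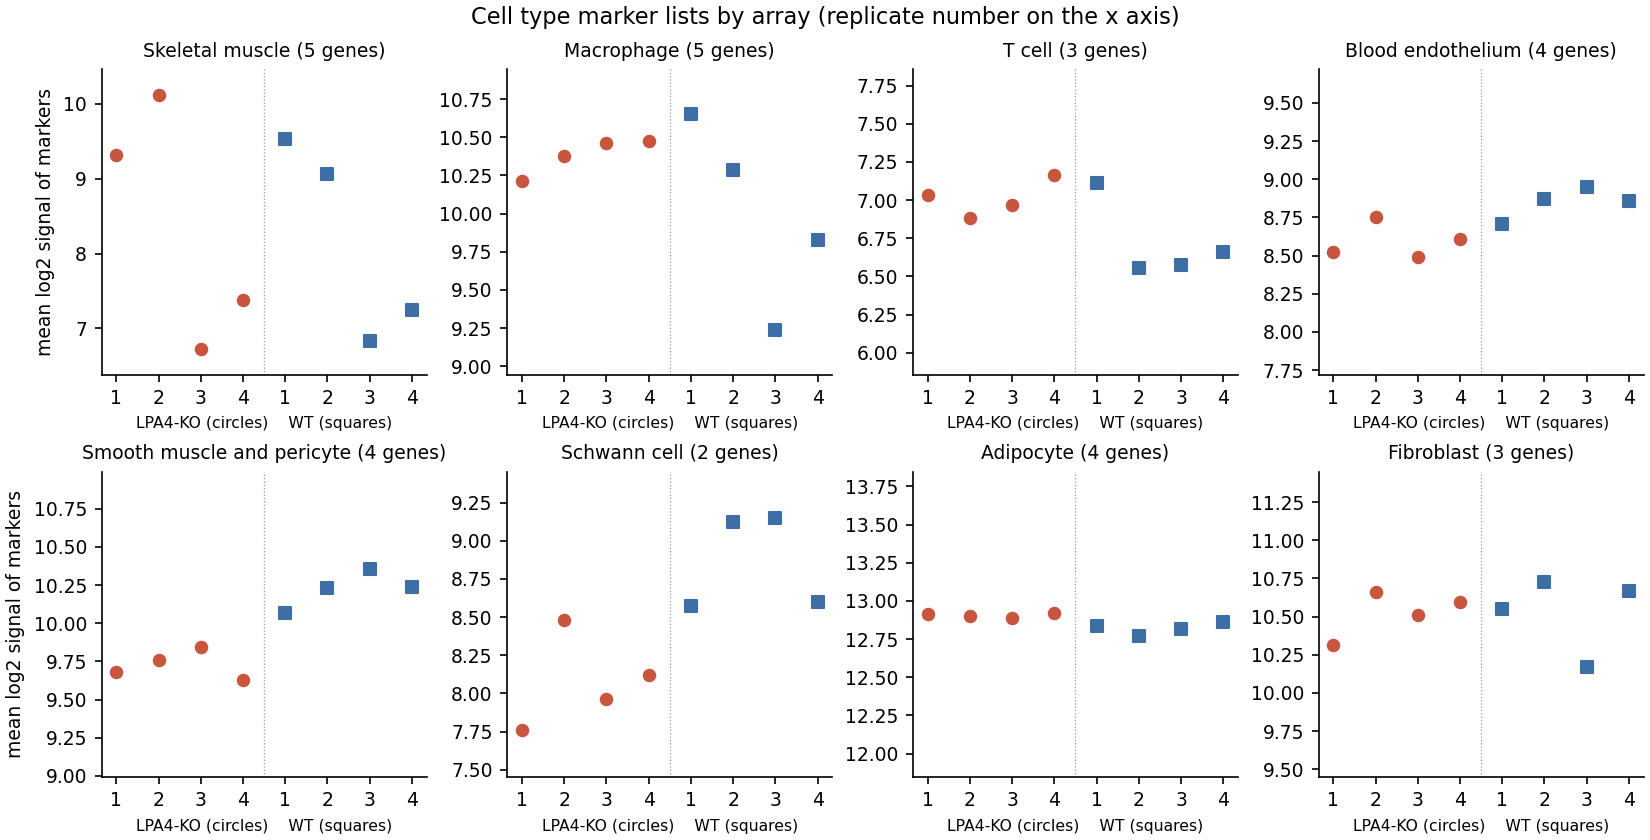
The mean log2 signal of 8 cell type marker lists in each array, LPA4-KO as circles and WT as squares, with the replicate number on the x axis and a span of at least 2 log2 units in each panel. Skeletal muscle parts replicate numbers 1 and 2 from 3 and 4, and smooth muscle and Schwann cell markers part the genotypes.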

How the data were processed

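Total RNA (100 ng per mouse) from iWAT of 4 LPA4-KO and 4 WT mice was labelled for a 3' expression array. The authors deposited log2 values for 45101 probe sets in 8 arrays, with R 2.14.0 named in the submitters' processing notes. How background was corrected and arrays normalised and summarised is not given in the sources used here. Values ran from 4.93 to 14.3, and their log2 scale was inferred from that range. Probe sets were named from the platform annotation: 34945 had 1 gene, 932 several, 9160 none listed, and 64 were controls. Members, lists and tests were chosen with earlier results of these data known.

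Genes were compared with limma 3.58.1 in R 4.3.3 (lmFit, eBayes, two-sided) over all 18193 genes with Benjamini-Hochberg adjustment, and the script was tested on simulated data. Permutation tests were exact and two-sided. Of 213 listed genes in 13 pathway and 12 marker lists 197 were measured. Named genes were the members, Lpar4, the passing genes of each list (at most 4) or else that with the smallest p, and the 5 genes most correlated with Fos and with Gadd45b.

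The labels give replicate numbers 1 to 4 in both genotypes. After subtracting each genotype's mean, the 2 arrays sharing a number correlated over genes (0.315, 0.486, 0.189 and 0.244 for numbers 1 to 4). Each exceeded 0.1. So did LPA4-KO 1 with WT 2 (0.1065) and LPA4-KO 2 with WT 1 (0.2205). LPA4-KO 3 with WT 4 (0.364) and LPA4-KO 4 with WT 3 (0.266) exceeded their same-number values. Numbers 1 or 2 against 3 or 4 gave only negative values. Subtracting the mean makes the deviations within a genotype cancel in each gene, so some negative values were bound to occur. These correlations therefore do not single out 4 pairs. The numbers were treated as pairs, from the data alone, only in the replicate block, which was fitted as an alternative. Having 4 arrays per genotype limits precision. Each limma p-value sets a difference against the spread between these mice, moderated over the genes tested, so it also depends on which genes are included. Promoters are from RefSeq (GRCm38.p6).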

Additional observations from a re-analysis of the deposited data

Results flagged for a closer look

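A single array stood far from its genotype in 6 of 60 gene and genotype groups, where chance gives about 1 in 20 per group. The groups share the same arrays, and several of the genes were correlated over them. All flags but that of Dusp2 lie in LPA4-KO 2 or WT 1. The flags are therefore not separate events, and no excess over chance can be read from their number. LPA4-KO 2 was high for Jun (8.52, the others 8.26 to 8.30), Egr1 (10.23, the others 9.003 to 9.20) and Nr4a1 (8.41, the others 7.51 to 7.58). WT 1 was high for Junb (8.22, the others 6.96 to 7.09) and Zfp36 (9.61, the others 9.16 to 9.23). Dusp2 was low in LPA4-KO 3 (6.6300, the others 6.6302 to 6.6303), a near-constant gene in which such a gap has no meaning.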

How the results depend on the processing

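Gadd45b was lower in LPA4-KO in all 18 alternatives (differences from -0.996 to -0.58, limma adjusted p from 0.00973 to 0.167). Its call, the only one among the members, was kept in 6 and lost in 12, so that 0 members passed with the replicate block, with replicate numbers 1 and 2 against 3 and 4 as a block (adjusted p = 0.0593), with probe sets averaged (-0.58), with the probe set of largest SD, and without LPA4-KO 2 and WT 1. Leaving out each array left 0 to 1 members. Over all genes 733 passed, against 0 with the replicate block, 0 without LPA4-KO 2 and WT 1 (unadjusted p under 0.05 in 3703 and 3506), 1402 among varying genes only and 10 to 253 when 1 array was left out. No immediate early gene passed in any alternative. Over the fits that left out 1 array, differences ran from -0.49 to 0.18 for Fos, -0.023 to 0.076 for Jun and -0.45 to 0.063 for Junb. They ran from -0.56 to 0.0018 for Egr1, -0.41 to 0.015 for Nr4a1 and -0.087 to 0.098 for Zfp36. For each of these genes the lower end came without LPA4-KO 2 and the upper end without WT 1. The sign turned without WT 1 for each of these but Jun, without LPA4-KO 1 also for Fos and Zfp36, without LPA4-KO 3 or 4 for Zfp36, and without LPA4-KO 2 or WT 4 for Jun. Without LPA4-KO 2 and WT 1 Zfp36 stood at 0.017. Of 244 values of 14 other named genes under an alternative, 172 kept sign and side of the threshold, 63 lost a call, 5 gained one and 4 turned sign. These 4 were Gna13 (-0.064 with probe sets averaged, -0.34 with the probe set of largest SD), Lif (-0.0001 with the latter) and Egr4 (0.0026 with quantile normalisation). The fit of varying genes with the block and the fit without LPA4-KO 2 and WT 1 were chosen after seeing the data. Fewer arrays per group alone lower the number of calls.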

Other observations

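Heat shock and hypoxia genes, which also answer to tissue stress, were read in the same way. Of 10 measured heat shock genes 2 rose in LPA4-KO and 0 fell, against 2.39% and 1.64% of all genes. Adjusted over varying genes alone, 5 of the 7 varying heat shock genes were higher and 1 lower, against 14.9% and 12.2% of varying genes. Of the 10, 6 had an unadjusted limma p under 0.05, as had 4172 of all 18193 genes. The median difference of the 10 was 0.09. The chaperone Hsp90aa1 was 11.57, 11.50, 11.48 and 11.48 in LPA4-KO 1 to 4 and 11.14, 11.23, 11.16 and 11.28 in WT 1 to 4, a difference of 0.30 ± 0.04 (SE, limma adjusted p = 0.0220, and 0.123 with the replicate block). Its co-chaperone Dnajb1 rose by 0.18 ± 0.03 (SE, limma adjusted p = 0.0332, and 0.149 with the block). Averaged over probe sets, the differences were 0.18 for Hsp90aa1 and 0.07 for Dnajb1, which then did not pass (limma adjusted p = 0.090). The inducible Hspa1a and Hspa1b were near constant at 7.23 and 8.36, and they are named after their values were seen. Of 7 varying heat shock genes 0 were highest in LPA4-KO 2 and WT 1 of their genotypes, against 4.70% of varying genes.

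Of 12 hypoxia genes 1 fell and 0 rose, against 1.64% and 2.39% of all genes, with a median difference of -0.02. The gene that fell was Ndrg1, a hypoxia and differentiation gene that is also high in myelinating cells (-0.52 ± 0.09, SE, limma adjusted p = 0.0420, and 0.120 with the replicate block). Ndrg1 was 10.48 to 10.83 in LPA4-KO and 10.97 to 11.24 in WT, without overlap. Adjusted over varying genes alone, 1 of the 10 varying hypoxia genes was higher and 2 were lower, against 14.9% and 12.2% of varying genes. Of these 10 varying hypoxia genes 2, Adm and Hmox1, were highest in LPA4-KO 2 and WT 1 of their genotypes, against the same 4.70%. The hour of dissection and the time to freezing were not tested, since no value for them was at hand.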
